A study of Mus musculus with 8 samples.

Results

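p53, encoded by Trp53 in the mouse, and 9 of its well-known direct target genes were followed in RNA-seq of mouse iPS (induced pluripotent stem) cells. Such cells have been reprogrammed to a state like that of embryonic stem cells. The 10 genes (Trp53, Mdm2, Cdkn1a, Ccng1, Tnfrsf10b, Bax, Bbc3, Pmaip1, Zmat3 and Phlda3) were taken by symbol from the 34369 symbols of the deposited table, each was found on 1 row, and all 10 passed the filter on low values that left 11949 genes for testing. The data were 5 libraries of mutator lines, in which both copies of Polg carry D257A, an exchange that removes proofreading by the mitochondrial DNA polymerase, and 3 libraries of wild-type lines from littermate embryos. All lines had grown in LIF on feeder cells that no longer divide, and 1 passage on gelatin preceded RNA extraction. Mutator replicates 1 and 2 differed by little more than fragment sampling (1.3 times its expected squared difference), where other pairs of libraries of 1 group differed by 4.67 to 20 times, and a common code stands in both column headers. They were counted as 1 sample, so that 4 mutator were compared with 3 wild-type samples. The submitters' design text calls the 5 mutator lines independent. A number is shared by the column headers of all wild-type libraries, so whether these lines came from separate embryos is not known, and genotype and embryo cannot be told apart if they did not. The p-values measure the spread between these lines.

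p53 is a transcription factor that is held at a low level in unstressed cells by MDM2, a ubiquitin ligase that marks it for breakdown and whose gene p53 itself switches on. DNA damage and other stresses release p53 from MDM2, mostly by changes to the protein and not to the Trp53 transcript, and p53 then binds response elements made of 2 copies of a decamer and raises genes for cell-cycle arrest, cell death and repair. In reprogramming, p53 limits how readily cells become pluripotent, and the level of its targets is often used as a readout of its activity.

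The decamers can be seen in the promoters of some of these genes. Promoter windows, running from 250 bases before to 50 bases after an annotated start (RefSeq, GRCm38.p6), were found for 7 of the 10 genes, in 10 windows, and not for Tnfrsf10b, Pmaip1 and Zmat3. An exact p53 consensus decamer, searched by its consensus (the motif and its reverse complement are the same pattern, so both strands are covered), lay in 5 of the 10 windows, and in 8.36% of all 32851 promoter windows. The windows of 4 genes are shown because their transcripts bear on the results below, 3 with an exact decamer and Bbc3 without one. Each is written 5′ to 3′ on the strand of its gene, with exact decamers in capitals.
Cdkn1a, chr17:29090729-29091028, plus strand: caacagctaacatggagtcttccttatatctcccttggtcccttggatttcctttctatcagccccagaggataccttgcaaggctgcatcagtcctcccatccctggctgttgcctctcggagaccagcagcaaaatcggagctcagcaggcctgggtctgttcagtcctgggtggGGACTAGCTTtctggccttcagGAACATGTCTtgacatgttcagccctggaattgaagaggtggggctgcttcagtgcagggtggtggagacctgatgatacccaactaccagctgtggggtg
Ccng1, chr11:40755237-40755536, minus strand: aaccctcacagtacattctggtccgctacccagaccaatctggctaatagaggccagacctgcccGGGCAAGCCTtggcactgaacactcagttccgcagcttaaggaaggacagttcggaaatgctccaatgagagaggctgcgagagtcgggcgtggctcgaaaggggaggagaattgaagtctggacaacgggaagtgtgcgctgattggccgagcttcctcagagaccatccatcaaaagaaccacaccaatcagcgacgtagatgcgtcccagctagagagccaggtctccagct
Mdm2, chr10:117710709-117711008, minus strand: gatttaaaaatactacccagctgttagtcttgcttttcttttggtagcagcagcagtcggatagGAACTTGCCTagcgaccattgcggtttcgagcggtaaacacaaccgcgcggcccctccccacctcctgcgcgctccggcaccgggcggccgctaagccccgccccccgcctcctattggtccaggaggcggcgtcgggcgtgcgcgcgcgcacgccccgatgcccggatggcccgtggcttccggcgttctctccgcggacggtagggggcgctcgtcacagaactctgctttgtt
Bbc3, chr7:16309333-16309632, plus strand: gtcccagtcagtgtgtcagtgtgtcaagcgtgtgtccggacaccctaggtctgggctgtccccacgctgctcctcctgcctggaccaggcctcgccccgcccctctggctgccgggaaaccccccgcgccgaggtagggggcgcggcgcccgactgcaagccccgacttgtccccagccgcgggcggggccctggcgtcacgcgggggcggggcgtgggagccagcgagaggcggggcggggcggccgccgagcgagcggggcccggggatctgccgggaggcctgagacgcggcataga
With up to 2 mismatches in each decamer outside its fixed C and G, and up to 13 bases between decamers, a paired site was found in 6 of the 10 windows and in 27.1% of all windows. The paired sites with no bases between the decamers were found in the windows of 3 genes and are shown to set their mismatches side by side.
Cdkn1a, 51 bases before the start, 1 mismatch: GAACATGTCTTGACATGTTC
Ccng1, 195 bases before the start, 1 mismatch: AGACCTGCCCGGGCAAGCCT
Bbc3, 97 bases before the start, 3 mismatches: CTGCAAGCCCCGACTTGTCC
The second of the 2 Cdkn1a windows, the third Bbc3 window and the single Phlda3 window held neither. A match is a description of the letters, and binding of p53 was not measured here.

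In the mutator lines, Cdkn1a and Tnfrsf10b rose, and the other 8 genes did not pass the test. Of the 10 genes, 2 were called (limma, Benjamini-Hochberg adjusted p below 0.05), where 7.49% of all tested genes were. Both were higher, as were 2.95% of all, and 0 were called lower, where 4.54% were (at an unadjusted p below 0.05, 0 of the 10 and 16.8% of all). At an unadjusted p below 0.05, 5 of the 10 were higher (Cdkn1a, Tnfrsf10b, Pmaip1, Zmat3 and Phlda3), where 13.6% of all tested genes were. The log2 change was above 0 in 8 of 10 genes, with Trp53 and Bax as the exceptions, and in 47.6% of all genes. All 8 had a log2 change of at least 0.5, against 15.6% of all tested genes, and the median over the 10 genes was 0.67, against -0.03 over all genes tested. Changes are given as mutator minus wild type on the log2(FPKM + 1) scale, which understates those of low genes, and FPKM are sequenced fragments divided by transcript length and by library size.

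**Figure D1:**
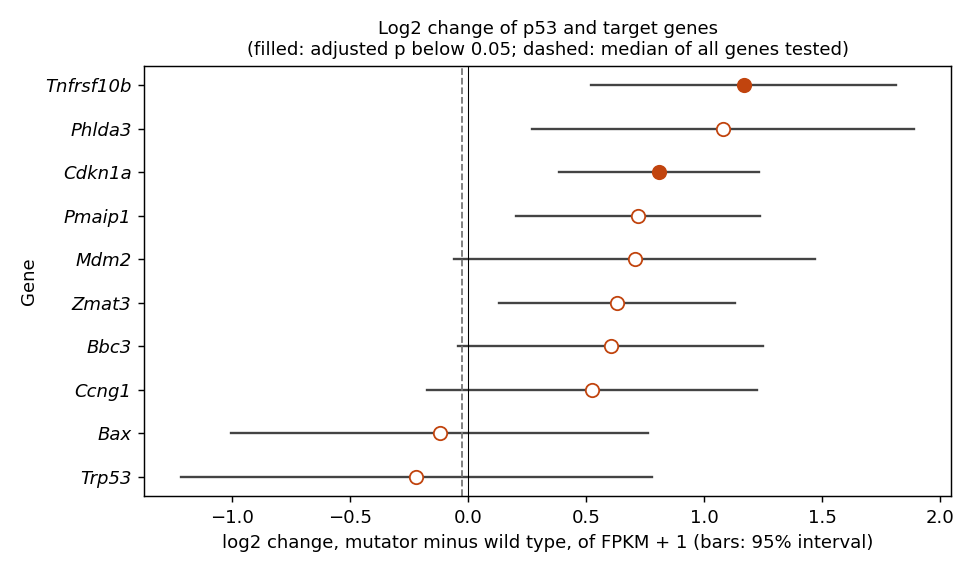
Log2 change (mutator minus wild type, of FPKM + 1) of the 10 genes with its 95% interval, 4 mutator against 3 wild-type samples. Filled points passed the test (Cdkn1a and Tnfrsf10b), and the intervals of Trp53, Bax, Ccng1, Mdm2 and Bbc3 include 0.

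Both Cdkn1a and Tnfrsf10b lost their call without any 1 of the wild-type replicates, without the mutator 1 and 2 pair, and without mutator replicate 4 or 5, leaving 0 of 10 called each time. Without mutator replicate 3, 5 of 10 were called, with Mdm2, Bbc3 and Phlda3 in addition. Both were also lost with no filter on low values, where 4 genes in all were called.

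Trp53 itself (ENSMUSG00000059552, chromosome 11, 69580359 to 69591873, plus strand; positions are from GENCODE M21, GRCm38) overlapped between the groups. It measured 16.1, 10.8 and 11.3 FPKM in wild-type replicates 1 to 3, and 3.95, 4.42, 21.5, 10.7 and 12.5 FPKM in mutator replicates 1 to 5. The 2 libraries of the pair were below all other libraries, mutator replicate 3 was above them, and mutator replicates 4 and 5 lay near the wild-type range. The means were 12.8 ± 2.95 FPKM (SD, n = 3) and 12.2 ± 7.15 FPKM (SD, n = 4), with a log2 change of -0.22 (95% interval -1.22 to 0.78, adjusted p = 0.76 in limma, and p = 0.8 in an exact two-sided permutation test). Its sign turned to 0.26 under TPM scaling, which sets every library to the same sum and moved the median of all genes from -0.03 to 0.37, so that the value of Trp53 relative to that median was -0.11. It also turned to 0.17 without the mutator 1 and 2 pair. The mutator samples spanned 5.14-fold, where the median tested gene spanned 1.8-fold, and 7.29% of tested genes had a larger coefficient of variation among them.

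The low and high Trp53 values were not shared by most of the genes around it, a check added after the values were seen. Of 55 tested genes within 1 Mb on either side, the median level was 1.01 and 1.07 times the wild-type mean in mutator replicates 1 and 2, where Trp53 was at 0.31 and 0.347 times, and 2 and 3 neighbours were lower than that. In mutator replicate 3 the neighbours had a median of 0.894 times and Trp53 was at 1.69 times, with 45 of 55 neighbours below it. Wrap53, which lies next to Trp53 on the chromosome, measured 2.08 to 3.27 FPKM in wild-type and 1.39 to 1.94 FPKM in mutator libraries. The processed pseudogene Trp53-ps was listed at 0 in 6 of the 8 libraries and at 1.76 and 0.877 FPKM in wild-type replicate 3 and mutator replicate 4, so that reads it could share with Trp53 leave a small uncertainty in those libraries. By Pearson's r of the log2 values over the 7 samples, the genes most like Trp53 were Dcakd (r = 0.992), Arhgdia (r = 0.988) and 1810055G02Rik (r = 0.977). Dcakd and Arhgdia are also on chromosome 11, while 1810055G02Rik is on chromosome 19. With 11949 genes to choose from and 7 points, such values describe a pattern and are not tested.

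**Figure D2:**
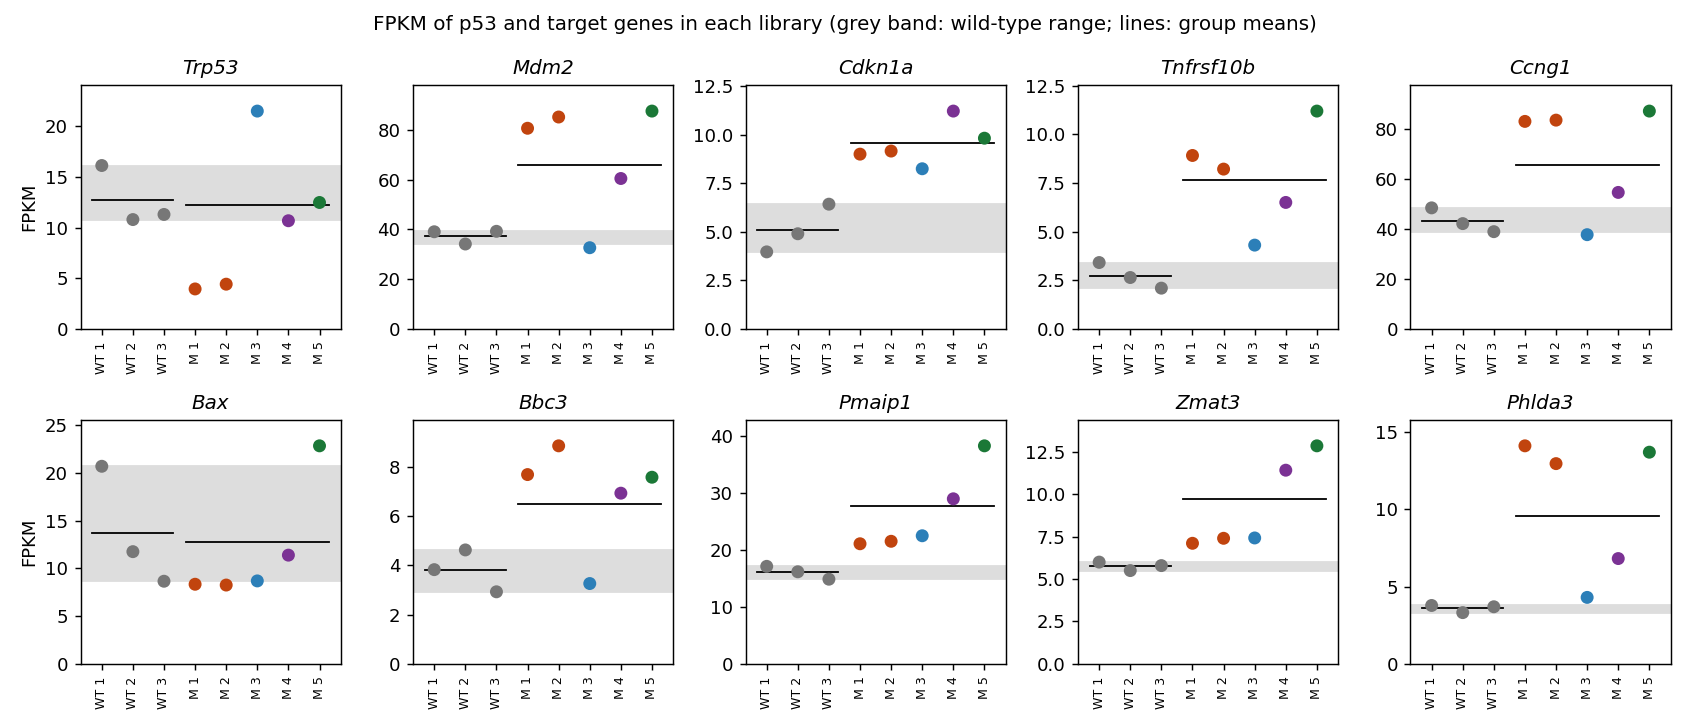
FPKM of each of the 10 genes in every library: 3 wild type (WT, grey) and 5 mutator (M, coloured, with replicates 1 and 2 in 1 colour). The grey band is the wild-type range and the lines are group means (mutator replicates 1 and 2 averaged first). Cdkn1a, Tnfrsf10b, Pmaip1, Zmat3 and Phlda3 lie above the band in all 5 mutator libraries.

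Mdm2 (ENSMUSG00000020184, chromosome 10, 117688875 to 117710758, minus strand), the gene of the ligase that restrains p53, was the most abundant of the 10 genes together with Ccng1. Its level was 39.1, 34.2 and 39.2 FPKM in wild-type replicates 1 to 3 and 80.7, 85.2, 32.7, 60.5 and 87.6 FPKM in mutator replicates 1 to 5. Of the mutator libraries, 4 of 5 were above the whole wild-type range, and mutator replicate 3 was below it. The means were 37.5 ± 2.89 FPKM (n = 3) and 65.9 ± 25.1 FPKM (n = 4), and the log2 change of 0.71 (SE 0.33) did not pass, at a limma adjusted p of 0.19 and an exact two-sided permutation p of 0.229. Without mutator replicate 3 it was called, at a log2 change of 1.0. The genes with the nearest pattern over the 7 samples were Tert, for the protein subunit of telomerase, Prrg4 and Aasdh (Pearson's r = 0.994, 0.992 and 0.990). Mdm4, the gene of the MDM2 relative that also binds p53, was singled out after its values were seen: it measured 31.1, 29.6 and 27.2 FPKM in wild-type and 63.3, 61.3, 23.3, 48.9 and 57.9 FPKM in mutator libraries, with a log2 change of 0.61 that did not pass (limma adjusted p = 0.24).

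Among the arrest genes, Cdkn1a (ENSMUSG00000023067, chromosome 17, 29090976 to 29100727, plus strand) encodes p21, an inhibitor of cyclin-dependent kinases and the classical p53 target. It was at 3.97, 4.91 and 6.43 FPKM in wild-type and at 9.01, 9.17, 8.26, 11.2 and 9.83 FPKM in mutator replicates. All 5 mutator libraries were above all 3 wild-type libraries, and the mutator samples were close to each other, spanning 1.36-fold, with 89.6% of tested genes more variable among them. The rise was 1.88-fold, from 5.1 ± 1.24 (n = 3) to 9.6 ± 1.26 FPKM (n = 4), or 0.81 (SE 0.18) on the log2 scale, at a limma adjusted p of 0.041 and an exact two-sided permutation p of 0.057 (the smallest that 4 against 3 samples can give). GENCODE M21 lists another gene model, AC167363.2, on the other strand with overlapping exons, so Cdkn1a is uncertain where reads were not assigned by strand. The range of its log2 change over 16 alternatives was 0.67 to 1.23. The nearest patterns were those of Dusp7, Cd63-ps and Dopey2 (Pearson's r = 0.990, 0.987 and 0.973 over 7 samples).

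Ccng1 (chromosome 11, 40748552 to 40755311, minus strand), for cyclin G1, which takes part in the feedback between p53 and MDM2, measured 48.4, 42.1 and 38.9 FPKM in wild-type libraries. The mutator libraries were at 82.9, 83.4, 37.7, 54.5 and 87.0 FPKM. As for Mdm2, 4 of 5 were above the wild-type range and mutator replicate 3 was below it. The log2 change of 0.52 (95% interval -0.17 to 1.22) did not pass (limma adjusted p = 0.28).

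Tnfrsf10b (ENSMUSG00000022074, chromosome 14, 69767472 to 69784411, plus strand) encodes the death receptor for the ligand TRAIL, which starts apoptosis from the cell surface. Its level was 3.41, 2.64 and 2.1 FPKM in wild-type and 8.91, 8.21, 4.31, 6.50 and 11.2 FPKM in mutator libraries. The groups did not overlap, with mutator replicate 3 nearest to the wild-type range. It rose 2.81-fold, from 2.72 ± 0.661 (n = 3) to 7.64 ± 2.94 FPKM (n = 4), the largest log2 change of the 10 genes at 1.17 (SE 0.28), with a limma adjusted p of 0.045 and an exact two-sided permutation p of 0.057. The range over 16 alternatives was 0.98 to 1.52.

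The genes of the BCL2 family did not pass, and they did not all look alike. Bax (chromosome 7, 45461697 to 45466898, minus strand), which forms pores in the mitochondrial outer membrane, was at 20.7, 11.7 and 8.64 FPKM in wild-type and 8.32, 8.24, 8.67, 11.4 and 22.8 FPKM in mutator libraries. The groups overlapped throughout, with wild-type replicate 1 and mutator replicate 5 far above the rest. These 2 libraries also had the largest median-of-ratios size factors on FPKM, 1.15 and 1.18 against 0.923 to 0.968 in the others, and the part of this scale difference in the Bax values was not tested. The log2 change was -0.12 (95% interval -1.0 to 0.76, limma adjusted p = 0.86), and its sign turned under TPM scaling (0.35, or -0.02 once the all-gene median was taken off), without wild-type replicate 1 (0.2), without the mutator 1 and 2 pair (0.033), without mutator replicate 3 (0.013) and without mutator replicates 1, 2 and 3 (0.31). GENCODE M21 lists another gene model on the same strand, Gm45808, whose exons overlap those of Bax, so the value of Bax is uncertain where reads could be shared.

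Bbc3 (chromosome 7, 16308393 to 16318205, plus strand) encodes PUMA and Pmaip1 (chromosome 18, 66458533 to 66465565, plus strand) encodes NOXA, both of them BH3-only proteins that release the pore formers. Bbc3 was at 3.83, 4.63 and 2.93 FPKM in wild-type and at 7.70, 8.87, 3.26, 6.94 and 7.59 FPKM in mutator libraries. Mutator replicate 3 lay inside the wild-type range and the other 4 libraries above it. The log2 change of 0.6 (95% interval -0.04 to 1.25) did not pass (limma adjusted p = 0.19).

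Pmaip1 measured 17.1, 16.2 and 14.9 FPKM in wild-type and 21.1, 21.5, 22.5, 29.0 and 38.3 FPKM in mutator libraries. Here mutator replicate 3 was not set apart: all 5 mutator libraries were above all wild-type libraries, and replicates 4 and 5 were the highest. The means were 16.0 ± 1.13 (n = 3) and 27.8 ± 7.79 FPKM (n = 4), and the log2 change of 0.72 (SE 0.23) did not pass, at a limma adjusted p of 0.082 and an exact two-sided permutation p of 0.057.

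Zmat3 (chromosome 3, 32334792 to 32366014, minus strand), for a zinc-finger protein that binds RNA, had the same order among the mutator samples. It was at 6, 5.50 and 5.79 FPKM in wild-type and 7.11, 7.40, 7.42, 11.4 and 12.9 FPKM in mutator libraries, without overlap. Its log2 change was 0.63 (SE 0.22) (limma adjusted p = 0.10), and the wild-type libraries spanned 1.09-fold.

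Phlda3 (chromosome 1, 135766119 to 135769136, plus strand), for a pleckstrin-homology protein that hinders the kinase AKT, was at 3.77, 3.31 and 3.69 FPKM in wild-type and 14.1, 13, 4.30, 6.81 and 13.7 FPKM in mutator libraries. All 5 mutator libraries were above the wild-type range, replicate 3 by little. The difference of 2.67-fold between the means, 3.59 ± 0.247 (n = 3) and 9.59 ± 4.77 FPKM (n = 4), was the second largest of the 10 and did not pass, with a log2 change of 1.08 (SE 0.35) (limma adjusted p = 0.09).

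Read library by library, 5 of the 10 genes (Cdkn1a, Tnfrsf10b, Pmaip1, Zmat3 and Phlda3) had all 5 mutator libraries above the 3 wild-type libraries, as had 11.8% of all tested genes. None of the 10 (0) had all 5 below, against 15.9% of all. At least 4 of 5 were above in 8 genes, against 22% of all. Of the 9 targets, mutator replicates 1, 2, 4 and 5 had 8, 8, 8 and 9 above all wild-type libraries, and mutator replicate 3 had 5. Among all tested genes, 32.7%, 32.7%, 26.1%, 44.2% and 26.8% were above in mutator replicates 1, 2, 4, 5 and 3. The median level of the 9 targets relative to the wild-type mean was 1.92, 1.94, 1.20, 1.83 and 2.23 times in mutator replicates 1 to 5. Of the 4 mutator samples, with replicates 1 and 2 averaged, replicate 3 was the lowest for 6 of 9 targets and replicate 5 the highest for 7. Replicate 3 also had the lowest median-of-ratios size factor of all libraries, 0.923, and replicate 5 the highest, 1.18. How many of all tested genes have this order was not counted, and the part of the scale difference in it was not tested.

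Among the mutator libraries, the one with the highest Trp53 level, replicate 3, had the lowest median of the targets. For Mdm2, the ratio of its FPKM to that of Trp53 was 2.42 to 3.47 in wild-type libraries, 20.4 and 19.3 in mutator replicates 1 and 2, 1.52 in replicate 3, 5.66 in replicate 4 and 7.01 in replicate 5. Over the 7 samples, Pearson's r of the log2 values of Mdm2 was 0.965 with Ccng1, 0.969 with Phlda3, 0.905 with Bbc3 and 0.900 with Tnfrsf10b. It was lower with Cdkn1a (0.669), Pmaip1 (0.72) and Zmat3 (0.72), 0.244 with Bax and -0.63 with Trp53. These values are descriptions over samples that include both groups.

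**Figure D3:**
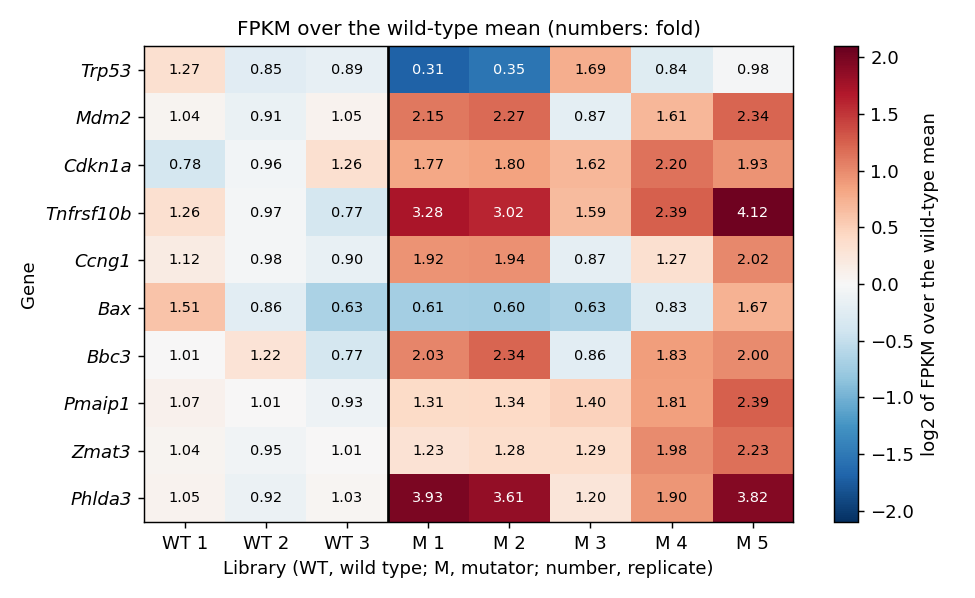
FPKM of each gene in each library divided by the wild-type mean (number in the cell, colour on a log2 scale). Mdm2, Ccng1 and Bbc3 are near or below 1 in mutator replicate 3 (0.87, 0.87 and 0.86) and between 1.27 and 2.34 in the other mutator libraries, while Trp53 is lowest in mutator replicates 1 and 2.

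Libraries also differed in markers of other cells, and the part of this in the results was not tested. Of 31 feeder fibroblast marker genes, 2 were called higher (Cyr61 at a log2 change of 2.02 and Fn1 at 1), where 2.95% of all tested genes were. A log2 change above 0 was found in 28 of 29 tested, against 47.6% of all. At an unadjusted p below 0.05 (limma), 10 were higher and 0 lower, where 13.6% and 16.8% of all tested genes were. All 5 mutator libraries were above the wild-type range in 8, against 11.8% of all. The summed level of the 31 feeder markers was 274 to 330 FPKM in wild-type libraries, with 0 genes listed at 0 in any library. It was 818, 825 and 771 FPKM in mutator replicates 1 to 3, 350 FPKM in replicate 4 and 611 FPKM in replicate 5. Of the core feeder markers, Col1a2, Fn1, Thy1 and Tagln were above the wild-type range in replicate 5. Col1a1, Lox and Vim lay inside that range in replicate 5, and Col3a1, Postn and Acta2 below it. Of 20 primitive endoderm markers, 11 were tested, 0 were called, 6 were higher at an unadjusted p below 0.05 (limma), and all 11 had a log2 change above 0, with Pdgfra at 1.26 and Col4a2 at 2.1. The shares of all tested genes are those given for the feeder markers. The filter took the mean over all 8 libraries, so a marker of either list could enter through high mutator values, which favours changes above 0. Gata4, at 0.483 to 0.973 FPKM in wild-type libraries and 6.51 FPKM in mutator replicate 5, was among the 11. The summed level of all 20 endoderm markers was 84.9 to 91.4 FPKM in wild-type libraries, 172 to 176 FPKM in mutator replicates 1 to 3, 107 FPKM in replicate 4 and 506 FPKM in replicate 5. Of these 20 genes, 5 were listed at 0 in wild-type replicate 3, Sox17 and Foxa2 among them. In wild-type replicates 1 and 2 and mutator replicates 3 to 5, 1 was at 0 in each, and in mutator replicates 1 and 2, 0 were. Of 21 pluripotency markers 1 rose (Tbx3, log2 change 1.31), 2 fell (Dppa2 and Nr0b1, log2 changes -1.63 and -0.88, neither called under TPM) and 18 did not pass. Of all tested genes 2.95% rose and 4.54% fell. Of the core factors, Pou5f1 was at 239 to 291 FPKM in wild-type and 103 to 188 FPKM in mutator libraries, while the groups overlapped for Sox2, Nanog, Klf4, Esrrb and Zfp42. The Y-linked gene Uty was at 13.8 to 26.4 FPKM in wild-type libraries and in mutator replicates 3 and 5 at 16.5 and 14.1 FPKM, but at 0.292 to 0.918 FPKM in mutator replicates 1, 2 and 4, and Ddx3y divided the libraries in the same way. In a setting chosen after the values were seen, without mutator replicates 1, 2 and 3 (those with the highest feeder marker means), 0 of the 10 genes were called and 16 genes in all were (2 mutator samples), and the log2 changes of Mdm2, Cdkn1a, Tnfrsf10b and Phlda3 were 0.94, 0.93, 1.38 and 1.22. In such bulk RNA, more cells of another type and more RNA per cell cannot be told apart.

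**Figure D4:**
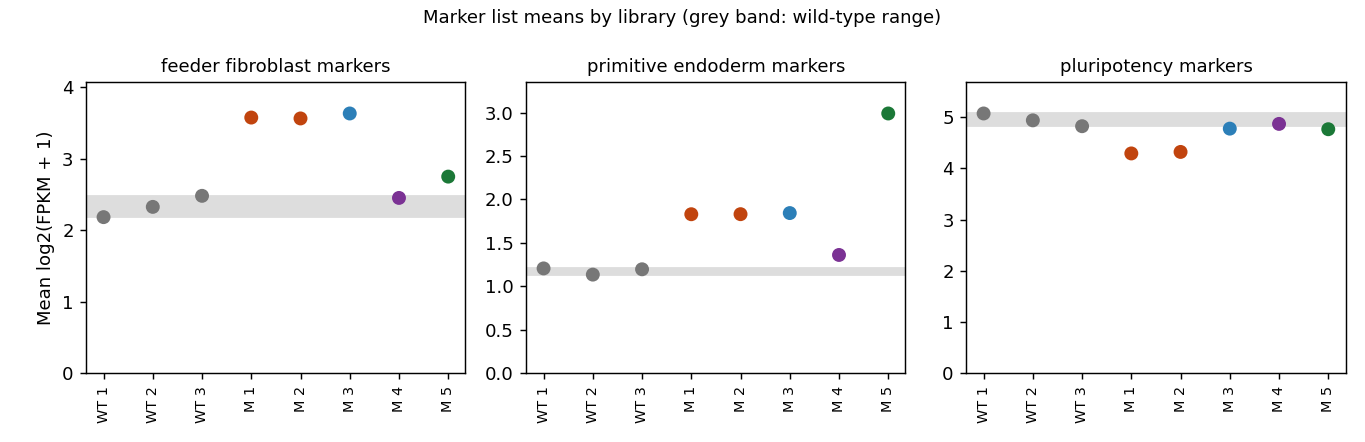
Mean log2(FPKM + 1) of the feeder fibroblast, primitive endoderm and pluripotency marker lists in each library, with the wild-type range in grey. Mutator replicates 1 to 3 have the highest feeder means (3.57, 3.56 and 3.63) and mutator replicate 5 the highest endoderm mean (2.99).

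Upstream of p53, 2 of 30 tested regulators rose, 1 fell and 27 did not pass, where 7.49% of all tested genes were called, a share near that of the list. Cdkn2a, which encodes both the kinase inhibitor p16INK4A and p19ARF, the protein that holds MDM2 away from p53, rose from 1.58, 2.36 and 1.05 FPKM in wild-type to 4.90, 3.56, 3.64, 3.09 and 4.25 FPKM in mutator libraries. Its log2 change was 0.87 (SE 0.20) (limma adjusted p = 0.042), and the gene value does not separate the 2 products. The call was lost in 11 of 15 alternatives, among them the omission of any 1 sample. Setd7, for a lysine methyltransferase, rose by a log2 change of 0.86 (limma adjusted p = 0.040). Ubb, a ubiquitin gene, fell by 1.07 on the log2 scale, from 66.4 ± 8.13 (n = 3) to 32.1 ± 8.69 FPKM (n = 4; limma adjusted p = 0.048). Under TPM scaling Ubb was not called (log2 change -0.56, limma adjusted p = 0.42). The median log2 change of the regulators was -0.14, against -0.03 for all genes tested, and 0.30 against 0.37 under TPM. These lists, like the 10 genes, were chosen with earlier results of these data known.

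Of 70 further p53 targets tested, 3 rose, 1 fell and 66 did not pass, with a median log2 change of 0.35 and 57 of 70 above 0. Of all tested genes 2.95% rose, 4.54% fell and 47.6% were above 0, so the called counts of these targets lie near or below the shares of all genes. In the arrest and growth list, 1 of 21 rose, the antiproliferative gene Btg1, from 2.98 ± 0.206 (n = 3) to 9.96 ± 3.35 FPKM (n = 4), at a log2 change of 1.4 (limma adjusted p = 0.031). Of 17 cell death targets 2 rose, Trp53i11 at a log2 change of 1.31 (limma adjusted p = 0.021) and Shisa5, for a protein of the endoplasmic reticulum membrane, at 1.16 (limma adjusted p = 0.040). Of 32 repair and metabolism targets 0 rose and 1 fell, Pcna, the sliding clamp of DNA polymerases, by 1.3 on the log2 scale (limma adjusted p = 0.032), a call lost under TPM scaling (log2 change -0.79, limma adjusted p = 0.24). At an unadjusted p below 0.05 (limma), 5 of the 21 arrest and growth targets were higher and 0 lower. Of the 17 cell death targets 4 were higher and 0 lower, and of the 32 repair and metabolism targets 10 and 3. Among all tested genes 13.6% were higher and 16.8% lower. The medians of these 3 lists were 0.38, 0.35 and 0.33, against -0.03 for all genes tested. Under TPM they were 0.84, 0.68 and 0.70, against 0.37 for all genes. All 5 mutator libraries were above the wild-type range in 4 of 21, 4 of 17 and 3 of 32 of them, where 11.8% of all tested genes were.

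**Figure D5:**
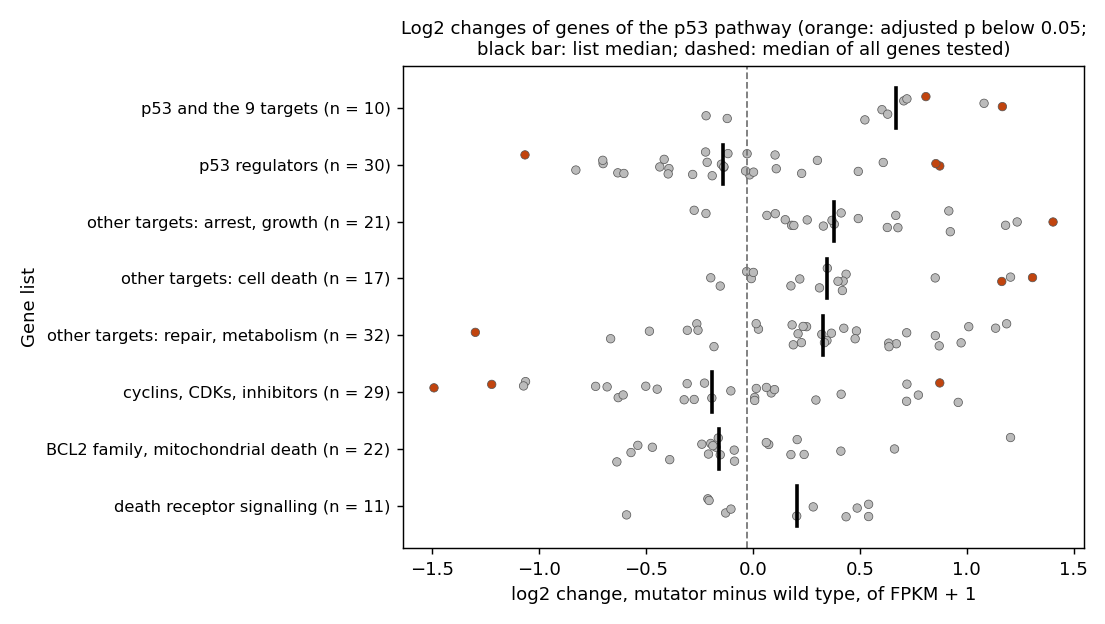
Log2 change (mutator minus wild type, of FPKM + 1) of each tested gene by list, with list medians as black bars and the median of all tested genes dashed. The 3 lists of further targets have medians of 0.33 to 0.38, and the regulators, the cyclins and kinases and the BCL2 family have medians of -0.19 to -0.14.

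Cdkn1a, called above, was not counted in the list of cyclins, their kinases, kinase inhibitors and pocket proteins. Of the 29 other genes tested in this list, 1 rose, 2 fell and 26 did not pass. These called counts are near the 2.95% and 4.54% of all tested genes that rose and fell. The 1 that rose was Cdkn2a, already counted among the regulators. At an unadjusted p below 0.05 (limma), 4 were higher and 8 lower, where 13.6% and 16.8% of all tested genes were. All 5 mutator libraries were above the wild-type range in 3 and below it in 8, where 11.8% and 15.9% of all tested genes were. The 2 that fell encode cyclins E1 and E2, whose kinase p21 inhibits. Ccne1 was at 60.6, 50.6 and 56.3 FPKM in wild-type and 11.9, 9.73, 31.9, 18.3 and 21.2 FPKM in mutator libraries, a log2 change of -1.49 (limma adjusted p = 0.037), and Ccne2 changed by -1.22 (limma adjusted p = 0.021). Under TPM scaling neither was called (log2 changes -0.98 and -0.75, limma adjusted p = 0.19 and 0.12). Ccne1 was least low in mutator replicate 3.

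In the death pathways, none passed: 0 of 22 tested genes of the BCL2 family and mitochondrial death, with a median of -0.16, and 0 of 11 of death receptor signalling, with a median of 0.20 (limma). At an unadjusted p below 0.05, 2 were higher and 4 lower in the first list, and 2 higher and 1 lower in the second, where 13.6% and 16.8% of all tested genes were. Apaf1, which assembles the caspase-activating apoptosome and is itself a p53 target, was at 4.89, 4.18 and 4.41 FPKM in wild-type and 16.3, 18.0, 5.61, 11.2 and 16.5 FPKM in mutator libraries. All 5 were above the wild-type range, replicate 3 by the least, and the log2 change of 1.20 did not pass (limma adjusted p = 0.062). Vdac3, for a channel of the outer mitochondrial membrane, had a log2 change of -0.57 (limma adjusted p = 0.095). Tnfrsf22, for a relative of the TRAIL receptor in the mouse, and Tnfrsf1a, the gene of TNF receptor 1, had log2 changes of -0.59 and 0.54 that did not pass (limma adjusted p = 0.090 and 0.12). Tnfsf10, the gene of TRAIL itself, was below the filter, at 0.00643 to 0.0668 FPKM over the 8 libraries.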

How the data were processed

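The 8 RNA-seq libraries of mouse iPS cells were used, with groups taken from the labels. The authors' deposited table gives FPKM per gene and library, and STAR and Cufflinks are named in the submitters' processing notes. Genome build, annotation, tool versions and strand setting are not given in the sources used here, so reads of overlapping genes may not be separable. Read counts and depth are not known from FPKM, and 11198 to 11899 genes were at 1 FPKM or more per library. The table had 37305 rows, and the values of 265 symbols on several rows were summed. Mutator replicates 1 and 2 were averaged.

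FPKM + 1 were taken to log2, 11949 genes whose mean over the 8 libraries reached 1 FPKM were kept, and limma 3.58.1 (R 4.3.3), with a trend in the variance, was applied to all of them with Benjamini-Hochberg adjustment at 0.05. The procedure was tested on simulated data. Single genes were also tested with an exact two-sided permutation test. Named were the 10 genes, up to 4 called genes of each other list with the smallest p (where there were none, up to 2, as values), and the 3 genes nearest in pattern to Trp53, Mdm2 and Cdkn1a. The members and lists were chosen with earlier results of these data known, and the 10 genes were left out of every other list. Promoter windows are from RefSeq (GRCm38.p6), gene positions from GENCODE M21. Alternatives were another pseudocount, other filters, TPM and median-of-ratios scaling, array weights, all 8 libraries, a replicate block and leaving out each sample.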

Additional observations from a re-analysis of the deposited data

Results flagged for a closer look

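Ubb, one of the ubiquitin genes among the p53 regulators, had 1 mutator sample apart from the others: the mean of replicates 1 and 2 was 19.1 FPKM, against 37.3, 35.9 and 36.2 FPKM in replicates 3, 4 and 5. The gap took up 0.923 of the range of the 4 mutator samples, above the critical share of 0.829. Of 35 results looked at in this way this was 1, and chance alone sets apart about 1 in 20. The same pair of libraries had the lowest Trp53 level, at 3.95 and 4.42 FPKM.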

How the results depend on the processing

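Of the 10 genes, 2 were called, of the 70 further targets 4, and of all genes 895. With no filter on low values these counts were 0, 0 and 4. TPM scaling gave 4 members, 18 further targets and 1113 genes, of which 98.1% were higher, against 39.4% as reported. Median-of-ratios size factors gave 4, 10 and 2150, array weights 6, 20 and 2752, and all 8 libraries as separate samples 3, 13 and 2203. A pseudocount of 0.1 gave 2, 7 and 1083. Leaving out 1 sample gave 0 to 5 members, 0 to 19 further targets and 2 to 1096 genes: members stayed above 0 only without mutator replicate 3, and all genes fell to 5 without wild-type replicate 1 or the mutator 1 and 2 pair and to 2 without wild-type replicate 2 or 3. Without mutator replicates 1, 2 and 3, chosen after seeing the data, the counts were 0, 0 and 16.

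The sign of Trp53 turned under TPM (0.26) and without the mutator 1 and 2 pair (0.17). That of Bax turned under TPM (0.35), without wild-type replicate 1 (0.20), without the mutator 1 and 2 pair (0.033), without mutator replicate 3 (0.013) and without mutator replicates 1, 2 and 3 (0.31), and leaving out 1 sample moved it between -0.42 and 0.20. The other 8 genes kept their direction in all 16 alternatives. Cdkn1a ran from 0.67 to 1.23 and Tnfrsf10b from 0.98 to 1.52, each losing its call in 9 of the 16. The called genes of the other lists lost theirs in 7 to 11 alternatives. Where calls were lost with fewer samples, fewer samples entered the fit, and the replicate block is described below. For the other settings the cause was not tested.

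Replicate numbers do not pair the samples (correlations of same-numbered deviations 0.0127, -0.0117 and 0.0514). With the replicate block, 0 members, 0 further targets and 1 gene in all were called, and on the log2 scale Cdkn1a was at 0.70, Tnfrsf10b at 1.09, Pmaip1 at 0.42 (0.72 as reported), Zmat3 at 0.30 (0.63), Trp53 at -0.68 (-0.22) and Bax at -0.56 (-0.12). FPKM without depth give no counting error for single libraries.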

Other observations

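Further p53 targets had all 5 mutator libraries above the 3 wild-type libraries without passing the test, and 3 are named here after their values were seen. Ddit4, which restrains the growth kinase complex mTORC1 under stress, was at 4.10, 3.29 and 2.25 FPKM in wild-type and 7.81, 6.49, 4.89, 12.8 and 12.7 FPKM in mutator libraries (log2 change 1.24, limma adjusted p = 0.055). Gadd45b, a stress-response gene, was at 1.33 to 2.01 FPKM in wild-type and 2.76 to 9.80 FPKM in mutator libraries, with a log2 change of 1.18 (limma adjusted p = 0.059). Pltp, for a lipid transfer protein of plasma, was at 1.68 to 3.48 and 3.92 to 11.2 FPKM, with a log2 change of 1.19 (limma adjusted p = 0.057). In all 3 genes mutator replicate 3 was the lowest of the mutator libraries, as it was for Mdm2, Cdkn1a, Tnfrsf10b, Ccng1, Bbc3 and Phlda3. It was not the lowest for Bax, Pmaip1 and Zmat3, and for Trp53 it was the highest. Of the other targets of this kind, it was the lowest for Apaf1, Mgmt and Tap1, but not for Cdkn1b and Casp6. How many of all tested genes were lowest in replicate 3 was not counted.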
